A study of Bos indicus x Bos taurus with 11 samples.

Results

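The genes described here are 10 enzymes and DNA-binding factors that write, copy, erase or guard DNA methylation: DNMT1, UHRF1, DNMT3A, DNMT3B, TET1, TET2, TET3, TRIM28, SETDB1 and CTCF. They were chosen by name from 27398 rows of expected counts, and all 10 were present and passed the filter on low counts. An allele-resolved table of 9716 genes held 7 of them, and a table of allele-scaled counts for 4347 genes held 5. RNA came from primary skin fibroblast cultures, 1 culture and 1 library per fetus, of 11 bovine fetuses at day 105 of gestation. Each fetus was an F1 cross between Bos taurus indicus (the Brahman breed) and Bos taurus taurus (the Angus breed). The 5 control fetuses (CON_B in the labels, 2 female and 3 male) were conceived by artificial insemination and labelled healthy. The 6 fetuses with large offspring syndrome (LOS, 3 female and 3 male) were conceived with assisted reproductive technology, and their body weight lay above the 97th centile of controls. Conception method and overgrowth therefore differ together between the groups and cannot be told apart here. LOS resembles Beckwith-Wiedemann syndrome, an overgrowth disorder of children in which imprinted genes are disturbed, and the series looks at both conditions.

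Imprinted genes carry methylation on 1 parental copy, laid down in the germ line and kept through every cell division. DNMT1 copies the mark onto newly made DNA during S phase, brought there by UHRF1, which binds hemimethylated CpG sites. DNMT3A and DNMT3B set new methylation, mainly in germ cells and early embryos, and TET1, TET2 and TET3 oxidise 5-methylcytosine on the way to its removal. TRIM28 (KAP1) is recruited by zinc finger proteins to imprinting control regions, where it brings in SETDB1, a methyltransferase of histone H3 lysine 9. CTCF binds the unmethylated copy of control regions such as that between IGF2 and H19 and acts there as an insulator.

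The cultures carried fibroblast RNA. All 10 fibroblast markers were detected, and their summed level was 57039.5 to 71914 CPM (reads relative to the library's scaled total) in controls and 57523 to 72048 CPM in LOS. The summed levels of keratinocyte, endothelial, leukocyte, muscle and of pluripotent and germ cell markers were at most 24.7 CPM in any library, with EPCAM, CLDN5, PTPRC, MYOD1, MYOG, NANOG, LIN28A and DDX4 not among the rows used. The melanocyte and Schwann cell list, of which PMEL and NGFR passed the filter, summed to 4.09 to 180 CPM in controls and 8.14 to 45.4 CPM in LOS. NGFR stood at 5.95 ± 5.87 CPM (SD, n = 5) in controls and 0.862 ± 0.751 CPM (SD, n = 6) in LOS, and the part of such cells in the results was not tested. Total counts ran from 12084822 to 19297167 per library. In cultures measured in bulk, fewer cells expressing a gene and less RNA per cell cannot be told apart. Since gene length was not used, levels are compared between fetuses and not between genes.

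In LOS against control, no gene of the 10 passed the test, and in every one of them the 2 groups overlapped. The fitted log2 differences ran from -0.58 for UHRF1 to 0.19 for TET3. The quasi-likelihood test of edgeR, with p-values adjusted by Benjamini-Hochberg over all 16946 genes tested, called 0 genes (0%), as did limma voom. DESeq2 called 5 genes (0.0296%), none of them among the 10. Without adjustment, 752 genes (4.44%) had an edgeR p under 0.05, again with 0 of the 10. Groups that did not overlap were found in 39 genes (0.23%), 16 of them higher in LOS (0.0944%) and 23 lower (0.136%).

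**Figure D1:**
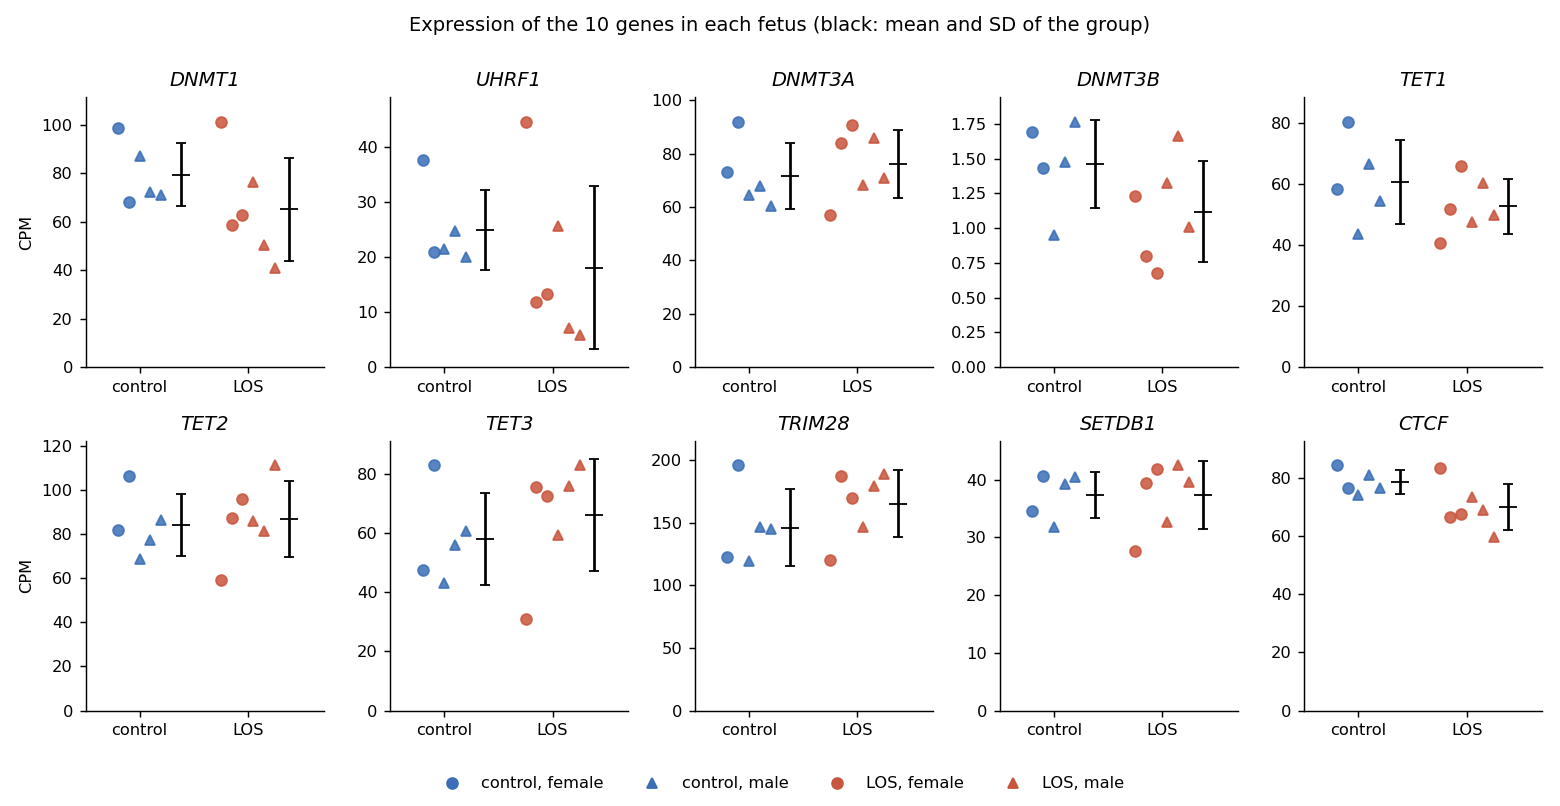
Level of each gene in CPM (linear axis from 0) in 5 control and 6 LOS fetuses, circles for females and triangles for males, with the group mean and SD in black. The groups overlap in every panel; for UHRF1, 4 of 6 LOS fetuses lie below all controls and LOS 1 lies above them.

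The maintenance pair, DNMT1 and UHRF1, had lower means in LOS and a wide spread between fetuses. DNMT1 stood at 98.6, 68.2, 87.3, 72.1 and 71.0 CPM in controls 1 to 5. In LOS its lowest value was 41.0 CPM (LOS 6), its median 60.6 CPM and its highest 101 CPM (LOS 1). Thus 4 of 6 LOS fetuses lay below every control, while LOS 1 was the highest of all 11. The means were 79.4 ± 13.0 CPM (SD, n = 5) and 65.0 ± 21.4 CPM (SD, n = 6), a log2 difference of -0.33 ± 0.20 (SE) with a 95% interval of -0.76 to 0.10 (edgeR adjusted p = 0.932; exact permutation p = 0.175, two-sided).

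UHRF1 had its highest value in LOS 1 and its lowest in LOS 6, as DNMT1 did. Controls 1 to 5 had 37.6, 20.9, 21.5, 24.7 and 19.98 CPM. LOS fetuses ran from 5.92 CPM (LOS 6) through a median of 12.6 CPM to 44.6 CPM (LOS 1), so that LOS 2, LOS 3, LOS 5 and LOS 6 lay below all controls. The highest fetus had 7.54 times the level of the lowest, and the SD of log2 levels over the 11 libraries exceeded that of 95.9% of all genes tested. Means of 24.95 ± 7.30 CPM (SD, n = 5) and 18.1 ± 14.8 CPM (SD, n = 6) gave a log2 difference of -0.58 ± 0.45 (SE), with a 95% interval of -1.56 to 0.40 (edgeR adjusted p = 0.932; exact permutation p = 0.162). This value depended on single fetuses: it was -0.96 without LOS 1, -1.03 without LOS 4 and -0.38 without LOS 6.

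Of the de novo enzymes, DNMT3A was measured well and DNMT3B barely. DNMT3A had 73.1, 92.0, 64.4, 67.9 and 60.6 CPM in controls 1 to 5, and a range of 56.9 to 90.7 CPM with a median of 77.5 CPM in LOS. Control 2 was the highest fetus and LOS 1 the lowest, and the log2 difference was 0.08 ± 0.13 (SE), with a 95% interval of -0.22 to 0.38 (edgeR adjusted p = 0.961). It was 0.0086 without LOS 5, 0.18 without control 2 and 0.17 without LOS 1. DNMT3B was counted only 9 to 30 times per library. There were 25, 29, 14, 30 and 25 counts in controls 1 to 5 and 15, 11, 9, 18, 22 and 19 counts in LOS 1 to 6, before scaling to library size. The exact Poisson 95% interval, which covers counting error only, was 4.12 to 17.1 for the 9 counts. The group means were 1.46 ± 0.318 CPM (SD, n = 5) and 1.116 ± 0.363 CPM (SD, n = 6), a log2 difference of -0.39 ± 0.27 (SE; edgeR adjusted p = 0.932, exact permutation p = 0.130), with 5 of 6 LOS fetuses below the control median.

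The 3 TET dioxygenases had fitted differences of both signs. TET1 had 58.3, 80.5, 43.7, 66.5 and 54.5 CPM in controls 1 to 5 and 40.6 to 65.9 CPM in LOS, with a LOS median of 51.0 CPM; the log2 difference was -0.21 ± 0.16 (SE), and -0.09 without control 2. For TET2, controls 1 to 5 had 81.6, 106, 68.5, 77.1 and 86.4 CPM and LOS fetuses 59.1 to 111 CPM with a median of 86.6 CPM, a log2 difference of 0.05 ± 0.16 (SE) that turned to -0.05 without LOS 6 and -0.02 without control 3. TET3 was at 47.6, 83.0, 43.1, 55.9 and 60.6 CPM in controls 1 to 5, and in LOS at 30.9 CPM (LOS 1) to 83.0 CPM (LOS 6) with a median of 74.0 CPM. For TET3, 5 of 6 LOS fetuses were above the control median, and the log2 difference of 0.19 ± 0.25 (SE) was 0.41 without control 2, 0.34 without LOS 1 and 0.09 without control 3. LOS 1, the highest fetus for DNMT1 and UHRF1, was the lowest of all 11 for each TET gene. The edgeR adjusted p were 0.932 for TET1, 0.979 for TET2 and 0.941 for TET3.

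Of the guards of imprinted methylation, CTCF came closest to a difference. It had 84.4, 76.5, 74.2, 81.0 and 76.6 CPM in controls 1 to 5, and 59.6 CPM (LOS 6) to 83.4 CPM (LOS 1) with a median of 68.3 CPM in LOS. All LOS fetuses but LOS 1 were below all 5 controls. The log2 difference was -0.18 ± 0.09 (SE), with a 95% interval of -0.37 to 0.02 (edgeR adjusted p = 0.932; exact permutation p = 0.0541, 1 of 10 such tests made without adjustment). TRIM28 had 123, 196, 119, 147 and 145 CPM in controls 1 to 5 and 120 to 189 CPM with a median of 174 CPM in LOS. Of 6 LOS fetuses 5 were above the control median, at a log2 difference of 0.18 ± 0.16 (SE; edgeR adjusted p = 0.932) that was 0.34 without control 2 and 0.11 without control 1. SETDB1 was near equal in both groups, at 37.3 ± 3.96 CPM (SD, n = 5) in controls and 37.3 ± 5.86 CPM (SD, n = 6) in LOS. Controls 1 to 5 had 34.6, 40.6, 31.8, 39.2 and 40.5 CPM of it and LOS fetuses 27.7 to 42.5 CPM with a median of 39.6 CPM. Its log2 difference of 0.00 ± 0.13 (SE) had a 95% interval of -0.28 to 0.28 (edgeR adjusted p = 0.999), and its sign changed in 6 of the 11 fits that left out a library.

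**Figure D2:**
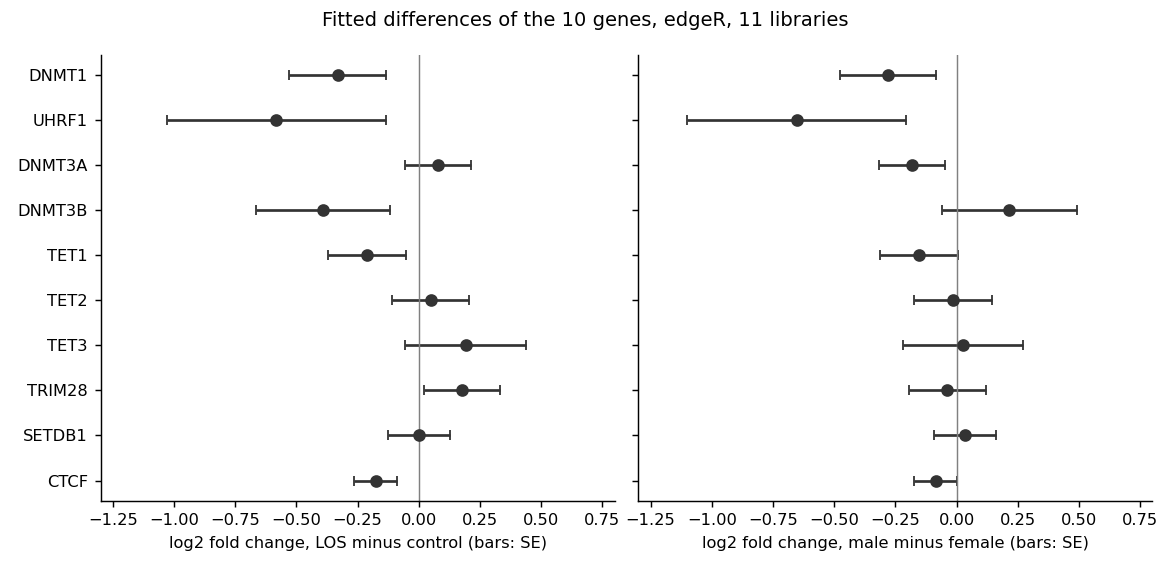
Fitted log2 fold change of each gene with its SE (horizontal bars), LOS minus control on the left and male minus female on the right, over 11 libraries. The widest bars belong to UHRF1 (SE of 0.45 in both panels), and no gene passed the test in either.

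Levels of several of these genes were correlated from fetus to fetus. DNMT1, UHRF1 and CTCF were high in the same fetuses, while TET3 and TRIM28 and, less firmly, TET2 and SETDB1 were high where DNMT1 was low. Of 45 pairs, 23 had a Pearson r of log2(CPM + 0.5) over the 11 libraries with an adjusted permutation p under 0.05 (Benjamini-Hochberg over the 45), 14 positive and 9 negative. An r of 0.6 or more in size, a limit chosen after seeing the data, was found in 27 of the 45 pairs and in 9.53% of all pairs of genes tested. The values of a library share its scaling and depth, so the pairs are not independent of each other. Without LOS 1, the highest fetus for DNMT1 and UHRF1 and the lowest for the TET genes, DNMT3A and SETDB1, 7 pairs passed, all of them among the 23, and 44 of 45 pairs had the same sign. The relations of DNMT1 to TET2 (adjusted permutation p = 0.129) and to SETDB1 (0.1084) were among those that no longer passed. As partial correlations on group and sex, 33 pairs passed. Those p-values permute residuals of the 11 libraries without allowing for the terms fitted, so they may be too small. This count therefore cannot be compared with the 23.

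DNMT1 and UHRF1, which act in 1 step, were the closest pair: r = 0.96 (permutation p = 3e-05, adjusted p = 0.000675), Spearman's rho = 0.96 (permutation p = 4e-05), and r = 0.93 without the 2 libraries farthest from the DNMT1 median. TET3 went with TRIM28 at r = 0.94 (permutation p = 1e-05, the smallest that 100000 permutations can give; adjusted p = 0.00045; rho = 0.95, permutation p = 4e-05), and at 0.98 without the 2 libraries farthest out for TET3. CTCF went with UHRF1 at r = 0.92 (permutation p = 9e-05, adjusted p = 0.001012; rho = 0.84, permutation p = 0.00232; 0.92 without the farthest 2). TET2 went with TET3 at r = 0.90 (permutation p = 7e-05, adjusted p = 0.001012; rho = 0.83, permutation p = 0.00279; 0.80 without the farthest 2). On the negative side, DNMT1 ran against TRIM28 at r = -0.86 (permutation p = 0.00057, adjusted p = 0.004275; rho = -0.85, permutation p = 0.00179; -0.84 without the farthest 2). It ran against TET3 at r = -0.85 (permutation p = 0.00084, adjusted p = 0.004725; rho = -0.89, permutation p = 0.00049; -0.84 without the farthest 2). All 6 of these pairs had an adjusted p under 0.05 without LOS 1 as well. DNMT3B, at its low counts, passed with none of the other 9 genes.

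**Figure D3:**
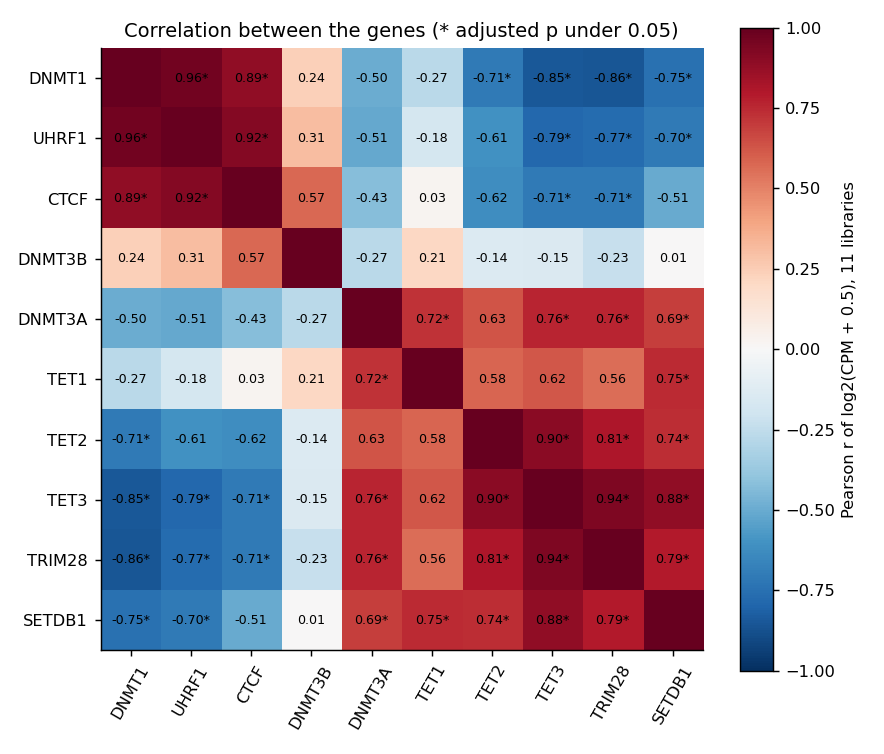
Pearson r between the 10 genes over 11 libraries, on log2(CPM + 0.5), red positive and blue negative, with stars for an adjusted permutation p under 0.05. DNMT1, UHRF1 and CTCF form a positive block (0.89 to 0.96) that is negative with TET3 and TRIM28 (-0.71 to -0.86).

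How these levels stood to cell division was measured with 36 cycling genes, such as MKI67, CDK1 and MCM5, whose mean log2(CPM + 0.5) is called the proliferation level here. It averaged 3.80 ± 0.29 (SD, n = 5) in controls and 3.42 ± 0.57 (SD, n = 6) in LOS, and the groups overlapped (exact permutation p = 0.221, two-sided). It was highest in LOS 1 (4.44) and control 1 (4.16) and lowest in LOS 5 (2.93) and LOS 6 (2.99). In LOS 35 of the 36 had a negative fitted difference, the median being -0.42 on the log2 scale against -0.0007 over all genes tested, and 0 passed. The smallest p were those of CDC45 (-0.47 ± 0.15, SE; edgeR unadjusted p = 0.0105, adjusted p = 0.932), CHAF1A (-0.63), NUSAP1 (-0.65) and KIF20A (-0.72).

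UHRF1 was correlated with the proliferation level over the 11 libraries at r = 0.93 (permutation p = 5e-05, adjusted p = 0.0005 over 10 correlations; rho = 0.85, permutation p = 0.00158; r = 0.88 without LOS 1 and LOS 5, the farthest from the median). CTCF did so at r = 0.89 (permutation p = 0.00018, adjusted p = 0.0009; rho = 0.90, permutation p = 0.00041; 0.94 without those 2) and DNMT1 at r = 0.84 (permutation p = 0.00126, adjusted p = 0.0042; rho = 0.80, permutation p = 0.00514; 0.75 without those 2). An r of 0.8 or more was found in 1.51% of the 16910 genes outside the list. TET3 had a negative relation, at r = -0.73 (permutation p = 0.01101, adjusted p = 0.02752). Its rho was -0.62 (permutation p = 0.04803, adjusted p = 0.1201). This relation was not firm: r was -0.50 without LOS 1 and LOS 5, and the adjusted p was 0.207 without LOS 1. The call was also lost without control 1 (adjusted p = 0.0545), LOS 2 (0.0562), LOS 5 (0.0511) or LOS 6 (0.0695). An r of -0.6 or less was found in 8.15% of the genes outside the list. The limits of 0.8 and -0.6 are unlike and lie close to the r of the genes named, so they are not independent yardsticks. An r of 0.6 or more in size was found in 16.5% of the genes outside the list. TRIM28 (-0.67, adjusted permutation p = 0.05556), SETDB1 (-0.57), DNMT3A (-0.51), TET2 (-0.51), DNMT3B (0.39) and TET1 (-0.07) did not pass. None of the 10 passed against total counts (r of -0.41 to 0.56, adjusted permutation p of 0.3823 to 0.7415).

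The list was also split into DNA synthesis and mitosis genes, without a test of the difference between them. Against the 18 S phase genes of the list, r was 0.97 for UHRF1, 0.96 for DNMT1 and 0.90 for CTCF, and 7 of the 10 genes passed; all 7 had an r of 0.6 or more in size, as did 16.6% of genes outside the list. Against the 18 mitosis genes it was 0.69, 0.55 and 0.70, and 0 passed; 2 of the 10 had an r of that size, and 10.9% of genes outside the list. In DNMT3B (0.26 and 0.45) and DNMT3A (-0.40 and -0.52) the r with mitosis genes was the larger in size. With the whole list, 5 of the 10 genes and 16.5% of the others reached that size. Among all 12022 annotated genes with a symbol, those most like DNMT1 over the 11 libraries were WDHD1 (r = 0.98), CDC25A (0.98) and ATAD2 (0.97), and those most like UHRF1 were RRM2 (0.99), MCM5 (0.98) and CLSPN (0.98). Genes much like CTCF were MAP6D1 (0.97) and RRM1 (0.96), TET3 was most like PLXNB1 (0.98), CALCOCO1 (0.97) and RXRB (0.96), and TRIM28 was most like BSDC1 (0.98), FOXO3 and INTS12 (0.97 each). For TET2 the closest gene was SOX12 (0.96), for DNMT3A YPEL1 (0.96), for SETDB1 KIAA1551 (0.94), for TET1 PDE8B (0.94) and for DNMT3B PRICKLE1 (0.91).

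With the proliferation level as a further term in the fit, the log2 difference of LOS minus control was -0.11 for DNMT1, -0.14 for UHRF1 and -0.07 for CTCF, against -0.33, -0.58 and -0.18 without it. That of TET3 turned to -0.22 and that of TRIM28 to -0.03. With log2 total counts as the further term instead, the differences of these genes were larger in size. They were -0.55 for DNMT1, -1.06 for UHRF1, -0.24 for CTCF, 0.41 for TET3 and 0.34 for TRIM28. TET1 moved the other way, from -0.21 in the main fit to -0.08 with total counts, and to -0.35 with the proliferation level. None passed the test in any of these fits.

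**Figure D4:**
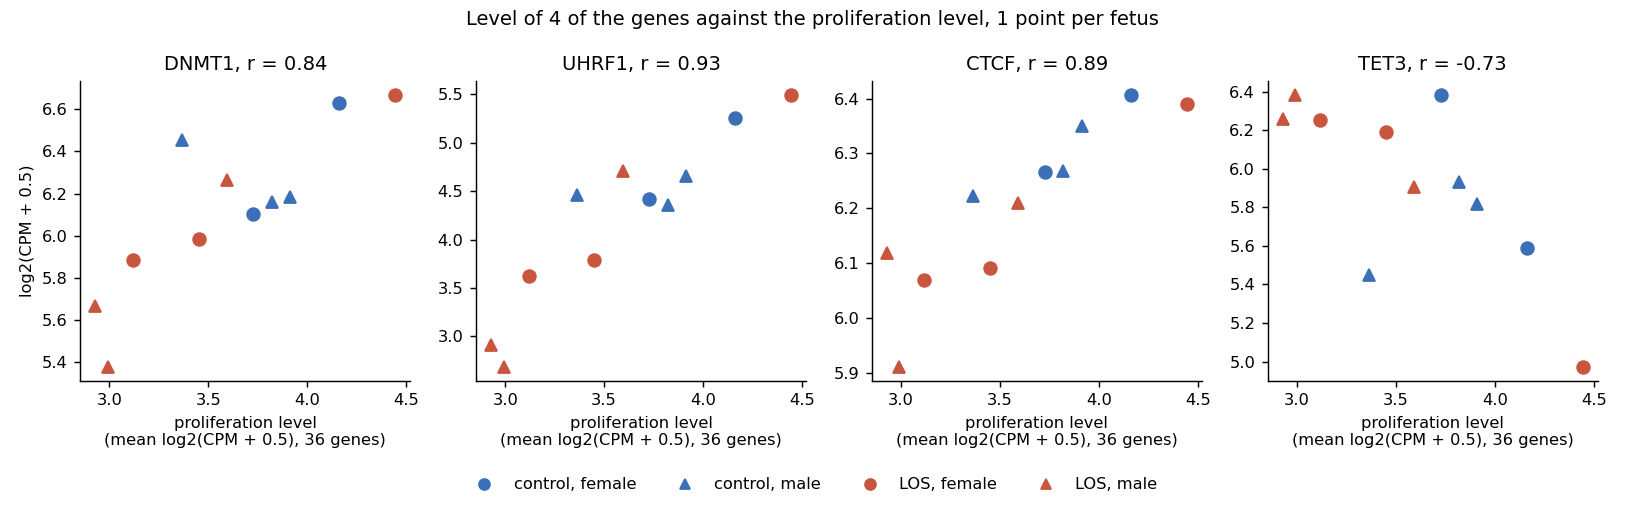
Log2(CPM + 0.5) of DNMT1, UHRF1, CTCF and TET3 against the proliferation level, 1 point per fetus, blue for controls and red for LOS, circles for females and triangles for males. The first 3 genes rise along the axis (r = 0.84, 0.93 and 0.89) and TET3 falls (r = -0.73), with LOS 1 at the right end of each panel.

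Other genes of the same pathways were counted in lists by role, and 0 passed edgeR's test in any list (background 0%). AHCY and GADD45A, and CDC45 of the cycling genes, had an unadjusted edgeR p under 0.05, a level reached by 4.44% of all genes tested. Medians compare with -0.0007 over all genes. Of 7 maintenance partners 5 had a lower and 2 a higher fitted level in LOS, with a median log2 difference of -0.19. PCNA, the replication clamp that binds DNMT1, had 17.6 ± 4.71 CPM (SD, n = 5) in controls and 13.2 ± 5.20 CPM (SD, n = 6) in LOS (-0.46 ± 0.25, SE). DNA ligase LIG1 was at -0.19 ± 0.15, CDCA7 at -0.45 ± 0.38 and the remodeller HELLS at -0.19 ± 0.26. Of 8 tested genes of de novo methylation and methyl donor supply or related to them, 6 were lower and 2 higher (median -0.05). AHCY, which clears the methylation by-product S-adenosylhomocysteine, had 73.3 ± 13.2 CPM in controls and 96.7 ± 24.1 CPM in LOS (0.41 ± 0.19, SE; edgeR unadjusted p = 0.0486, adjusted p = 0.932). MTR, TRDMT1 and MAT2A had log2 differences of -0.29, 0.09 and -0.14. DNMT3L, the cofactor of DNMT3A in germ cells, was below the filter.

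Of 9 genes of oxidative demethylation and base excision, 5 were higher and 4 lower (median 0.08). GADD45A, a DNA damage response gene linked to demethylation, had 26.6 ± 6.50 CPM (SD, n = 5) in controls and 41.8 ± 10.1 CPM (SD, n = 6) in LOS, with 5 of 6 LOS fetuses above all controls (log2 difference 0.63 ± 0.21, SE; edgeR unadjusted p = 0.0112, adjusted p = 0.932). IDH2, IDH1 and GADD45B were at 0.37, -0.15 and 0.25. Of 9 methyl-CpG readers and genes related to them, 6 were higher and 3 lower (median 0.03), with MBD6 at 0.23, ZBTB4 at 0.11 and MBD5 at 0.10. Of 14 tested partners of TRIM28 and of H3 lysine 9 methylation, 5 were higher and 9 lower (median -0.06). They include ZFP57 and ZNF445, zinc finger proteins that bring TRIM28 to imprinted regions. ZFP57 had 61.8 ± 7.97 CPM in controls and 65.2 ± 1.53 CPM in LOS (0.10 ± 0.08, SE), and ZNF445 28.6 ± 2.42 and 25.3 ± 3.73 CPM (-0.16 ± 0.11, SE). PPHLN1 was at 0.10 and CBX5 at -0.10.

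Of 14 tested cohesin genes and CTCF partners, 5 were higher and 9 lower (median -0.02). SMC1A, a ring subunit of cohesin, had 131 ± 7.22 CPM (SD, n = 5) in controls and 116 ± 17.9 CPM (SD, n = 6) in LOS (log2 difference -0.20 ± 0.10, SE), with 5 of 6 LOS fetuses below all controls and 1 above them. In CHD8, a remodeller that binds CTCF, all 6 LOS fetuses were below all controls, at 124 ± 3.67 against 131 ± 1.51 CPM (-0.08 ± 0.06, SE; edgeR adjusted p = 0.932); groups separated in this direction in 0.136% of all genes. SMC3 and PDS5B were at -0.12 and -0.11. Of the maternal effect genes of imprinting, which act in the egg, KDM1B (-0.06) and TLE6 (0.27) passed the filter, and DPPA3, KHDC3L, OOEP and PADI6 did not. NLRP2, NLRP5 and NLRP7 of that list were not among the rows used.

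Sex made no difference that passed the test in any of the 10 genes, where 8 of 16946 genes (0.0472%) passed; at an unadjusted edgeR p under 0.05 there were 0 of the 10 and 3.3% of all genes. Female fetuses averaged 25.7 ± 14.7 CPM of UHRF1 (SD, n = 5), males 17.5 ± 8.77 CPM (SD, n = 6), a log2 difference, male minus female, of -0.65 ± 0.45 (SE; edgeR adjusted p = 0.999). DNMT1 was at 77.9 ± 20.4 and 66.3 ± 17.3 CPM (-0.28 ± 0.20, SE) and DNMT3A at 79.3 ± 14.6 and 69.7 ± 8.76 CPM (-0.18 ± 0.13, SE). The other 7 had log2 differences of -0.15 to 0.22. The sex difference of UHRF1 was -0.20 without LOS 1 and -1.10 without LOS 4, that of DNMT1 -0.12 and -0.41, and that of DNMT3A -0.29 without LOS 1 and -0.09 without control 2. Whether LOS differed between the sexes was tested by the interaction, which called 0 of 17583 genes (0%); 870 genes (4.95%) and 0 of the 10 had an unadjusted p under 0.05, and DESeq2 called 6 genes. The smallest p among the 10 was that of TET2 (edgeR unadjusted p = 0.136, adjusted p = 0.921), with a LOS log2 difference of -0.22 ± 0.22 (SE) in females and 0.26 ± 0.20 (SE) in males.

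Reads that could be assigned to a parent covered 7 of the genes, and both copies were expressed in each. DNMT1 (chromosome 7, 14679342 to 14730652, minus strand, build ARS-UCD1.2) and UHRF1 (chromosome 7, 19223876 to 19257799, minus strand) were read in all 11 fetuses. So were DNMT3A (chromosome 11, 73971560 to 74074893, plus strand), TET1 (chromosome 28, 24907388 to 25041033, plus strand) and TRIM28 (chromosome 18, 65769086 to 65775448, plus strand). TET3 (chromosome 11, 10556337 to 10667630, minus strand) had no allelic reads in LOS 2, and SETDB1 (chromosome 3, 19801954 to 19834368, minus strand) none in control 1. DNMT3B (chromosome 13, 62142602 to 62176735, plus strand), TET2 (chromosome 6, 19895945 to 20039487, minus strand) and CTCF (chromosome 18, 35144142 to 35189859, plus strand) were not among the rows of the allelic table used here.

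The maternal share of DNMT1 reads was 54.6%, 49.0%, 49.6%, 46.5% and 51.6% in controls 1 to 5, on 353 to 593 reads each. In LOS it ran from 47.7% (LOS 5) to 61.4% (LOS 3). The exact Clopper-Pearson 95% interval, which covers counting error only, lay above 50% in LOS 2 (60.9%, 54.7 to 66.9), LOS 3 (61.4%, 56.0 to 66.6) and control 1 (54.6%, 50.5 to 58.7). The group means were 50.3% ± 3.04 (SD, n = 5) and 54.6% ± 5.52 (SD, n = 6), which did not differ beyond their spread (exact permutation p = 0.160; edgeR adjusted p = 0.999). In the allele-scaled counts, maternal DNMT1 had 40.1 ± 8.64 CPM in controls and 35.4 ± 11.2 CPM in LOS, and paternal DNMT1 39.3 ± 4.91 and 29.6 ± 11.1 CPM. The log2 differences were -0.25 ± 0.19 (SE) and -0.43 ± 0.22 (SE), and neither passed (edgeR adjusted p = 0.974 and 0.934). For the 5 genes in that table, 0 maternal and 0 paternal copies had an unadjusted p under 0.05, a level reached by 4.61% and 4.42% of genes.

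None of the 7 passed the test of maternal share between LOS and control, which called 0 of 5700 genes (0%) and had 246 (4.32%) at an unadjusted p under 0.05, 0 of them among the 7. TRIM28 had maternal shares of 27.4%, 47.8%, 44.8%, 54.5% and 54.2% in controls 1 to 5, and 33.8% (LOS 2) to 48.2% (LOS 1) in LOS. All 6 LOS fetuses and 3 of 5 controls were below 50%, and the interval excluded 50% in control 1, LOS 2, LOS 3 and LOS 6. The means were 45.7% ± 11.1 (SD, n = 5) and 41.6% ± 4.97 (SD, n = 6; exact permutation p = 0.424). For TET1, with 14 to 306 reads per fetus, the means were 52.3% ± 3.61 (SD, n = 5) and 44.9% ± 9.33 (SD, n = 6; exact permutation p = 0.158), with LOS 4 lowest at 31.9% (19.1 to 47.1). In DNMT3A the 3 male LOS fetuses had 43.2%, 43.6% and 42.6%, each with an interval below 50%, and the other 8 fetuses 45.4% to 52.7%. These intervals cover counting error only, and a difference of maternal share by sex was not tested. The group means for DNMT3A were 48.1% ± 2.32 (SD, n = 5) and 46.7% ± 4.17 (SD, n = 6; exact permutation p = 0.526). UHRF1, TET3 and SETDB1 differed between the groups by -1.18, -1.26 and 2.26 percentage points (exact permutation p = 0.630, 0.802 and 0.595).

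Over all 11 fetuses, the paternal copy gave more reads than the maternal copy in UHRF1 and TRIM28. The direction of the crosses is not given here, so the parent of a copy and its breed cannot be told apart. Whether reads of 1 breed's copy were mapped better was not tested. UHRF1 had 833 maternal of 1800 reads, with a maternal share below 50% in 10 of 11 fetuses and a log2 ratio, maternal to paternal, of -0.26 ± 0.09 (SE; edgeR adjusted p = 0.0426). TRIM28 had 629 maternal of 1425 reads, with 9 of 11 fetuses below 50% and a log2 ratio of -0.36 ± 0.12 (SE; edgeR adjusted p = 0.0386). The paternal copy passed in 10.3% of the 5700 genes tested and the maternal copy in 10.2%, and all autosomal reads together were 50.46% to 50.85% maternal per library. Neither call was firm. UHRF1 lost it with limma voom (adjusted p = 0.0581), with DESeq2 (0.0731) and in 9 of the 11 fits that left out a library, namely all but those without control 1 or control 4 (adjusted p up to 0.0937). TRIM28 lost it in 7 of those 11 fits, the highest adjusted p being 0.103 without LOS 2. DNMT3A (-0.16 ± 0.07, SE; edgeR adjusted p = 0.0869), DNMT1 (0.15 ± 0.08, SE; 0.196), TET3 (0.07), TET1 (-0.01) and SETDB1 (-0.00) did not pass.

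**Figure D5:**
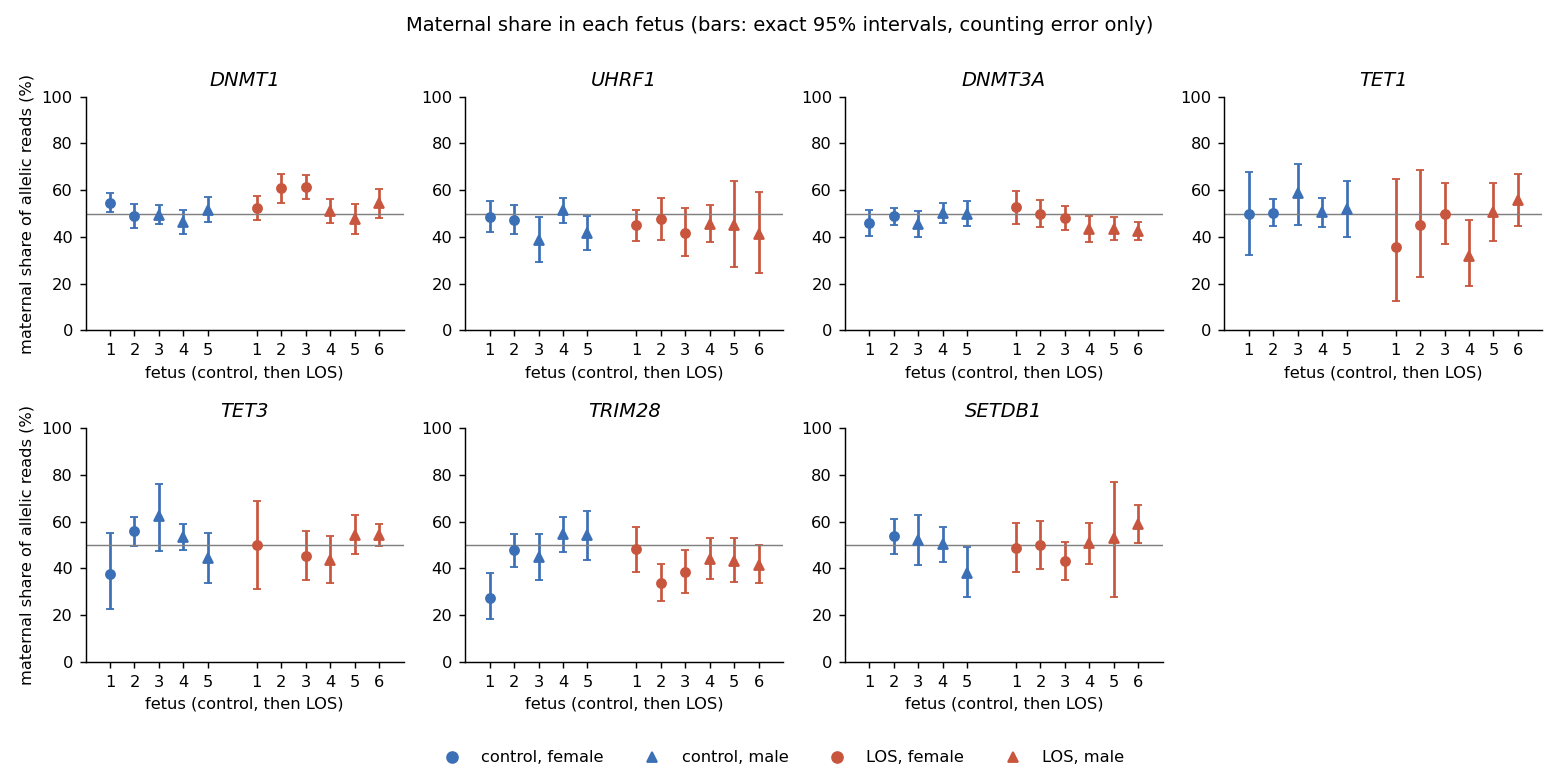
Maternal share of allelic reads (percent) in each fetus for the 7 genes with such reads, blue for controls and red for LOS, circles for females and triangles for males, with exact 95% intervals that cover counting error only. Both copies are read in every fetus shown, and the shares lie between 27.4% and 62.5%.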

How the data were processed

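Per the labels' protocols, total RNA depleted of ribosomal RNA was sequenced from 11 fibroblast cultures, 1 per fetus. The submitters' processing notes name build ARS-UCD1.2 and, with no role or order, Salmon 0.11.1, HISAT2 2.1.0, Cufflinks 2.2.1, StringTie 2.1.4, edgeR 3.36.0, Picard 2.22.4, GATK, SAMtools 1.8 and FastQC 0.11.7. The sources used here do not give how reads were counted, whether by strand, or how sites were phased. The authors deposited expected counts (estimated reads, not normalised) for 21862 annotated genes and 5536 assembled loci, and 71.2% of the values were whole. They also deposited whole read counts of the maternal and paternal allele, and expected counts multiplied by the allelic share, per the file headers. That product was checked over 4334 genes, with 0 values beyond 0.001.

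Expected counts were rounded and fitted in R 4.3.3 with edgeR 4.0.16 (TMM factors, filterByExpr, quasi-likelihood, sex and group as terms). The allelic fit had a term per library and left out X and mitochondrial genes and required a mean of 20 allelic reads, with 10 reads reached by 3 or more fetuses in both groups. Alternatives used DESeq2 1.42.0 and limma 3.58.1. Log2 levels had a pseudocount of 0.5 CPM. Correlations used 100000 permutations, and group differences of single values an exact permutation test over the 462 arrangements of the fetuses (252 for TET3 and 210 for SETDB1 shares). The plots come from Python 3.11.15 and matplotlib 3.10.9. The interaction fit had its own filter and tested 17583 genes. Alternatives covered normalization, filters, the tool, covariates, the read minimum, the gene set of the proliferation level and each library left out in turn; total counts as a term and all alternatives of the pairs were added after seeing the data.

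The genes and lists were chosen with earlier results of these data known. All 10 genes are named, together with up to 4 genes of each list by smallest p and the 3 genes most alike by r (other than assembled loci and LOC entries), of which 1 is given for some. Some genes that these rules would name are not reported here. Fibroblast and other marker lists are given by their sums. SETDB1 overlaps CERS2 (95.0 CPM) by 60 bp on the other strand, and UHRF1 overlaps ARRDC5 (0.0194 CPM) by 1542 bp. Counts of these pairs could be mixed if strand was not used. DNMT1, DNMT3A and TET1 overlap loci on their own strand of at most 0.708 CPM. In SETDB1 and CTCF all 11 counts, and in TET1 10 of 11, were fractional beyond 0.01.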

Additional observations from a re-analysis of the deposited data

Results flagged for a closer look

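In all, 36 sets of values were checked, each from 1 group. In 2 of them a fetus stood farther from the others than a test for single outlying values allows. Chance gives about 1 in 20 sets. Control 1 had 37.62 CPM of UHRF1, against 24.69 CPM in the next control. Control 3 had a maternal share of 58.62% for TET1, against 52.11% in the next control, on 58 reads with an exact 95% interval of 44.9 to 71.4.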

How the results depend on the processing

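No gene of the 10 passed in LOS against control, between the sexes or in the interaction under any alternative run. DESeq2 called 5 genes in LOS against control, 22 by sex and 6 in the interaction; by sex, 3 passed among annotated genes and 2 with the replicate number as a block, and 3 to 7 with a library left out. Differences near 0 changed sign, and some larger ones did as well. The sex differences of UHRF1 (-0.65 in the main fit) and DNMT1 (-0.28) turned positive with the replicate number as a block. The interaction of UHRF1 (-0.45 in the main fit) turned positive in 1 of the fits that left out a library. What caused these changes was not tested. For LOS minus control, SETDB1 was at -0.00592 with limma voom, -0.00637 with upper quartile factors, -0.063 without factors, -0.000322 at a mean CPM of 1 or more, -0.00293 without the sex term, -0.14 with the replicate block and -0.15 with the proliferation level as a term. That term gave -0.12 for DNMT3A, -0.13 for TET2, -0.22 for TET3 and -0.031 for TRIM28. TET2 was at -0.016 without factors and -0.17 with the replicate block, TET3 at -0.080 with the block. By sex, TET3 and SETDB1 were at -0.018 and -0.012 without factors. With the block, the sex differences of DNMT1, UHRF1, TET3, SETDB1 and CTCF were 0.34, 0.22, -0.82, -0.53 and 0.015. The sex term of that fit rests on control 3 (male) against LOS 3 (female) alone. No other replicate number holds both sexes. With the block, the maternal copy in LOS minus control was at -0.042 for DNMT3A and -0.034 for TRIM28 (-0.000448 without the sex term). Maternal to paternal SETDB1 was at 0.0082 with limma voom. Against S phase genes 7 of the 10 correlations passed, against mitosis genes 0 (TET1 r = 0.042), and 7 as partial correlations on group and sex. Counts from partial correlations may be too high, since the residuals were permuted without allowing for the terms fitted. With 1 library left out, ranges in LOS minus control were -0.053 to 0.069 for SETDB1 and -0.052 to 0.17 for TET2; for the maternal copy -0.045 to 0.10 (DNMT3A) and -0.17 to 0.31 (TRIM28); and for paternal TET1 -0.16 to 0.083. By sex they were -0.13 to 0.11 for TET2, -0.16 to 0.25 for TET3, -0.14 to 0.12 for TRIM28 and -0.052 to 0.085 for SETDB1. In the interaction they were -1.44 to 0.43 for UHRF1, -0.049 to 0.63 for TRIM28, -0.069 to 0.21 for SETDB1 and -0.12 to 0.061 for CTCF. For maternal share, 0 to 1 gene passed (1 without control 2, LOS 1 or LOS 2), with -0.16 to 0.0097 for UHRF1 and -0.084 to 0.20 for SETDB1. Maternal to paternal, TET1 ran from -0.057 to 0.073 and SETDB1 from -0.074 to 0.064. The r of TET1 with proliferation ran from -0.16 to 0.33, and 7 (without LOS 1) to 24 pairs passed. As partial correlations on group and sex 33 passed, with the limit given above. Residual correlations of same-numbered fetuses were -0.20 to 0.29, and 2 of 5 controls matched their own number best. With 5 such pairs this cannot decide whether replicate numbers pair the fetuses. DNMT3B, at 9 to 30 counts, and allelic values under 50 reads are the least precise.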
